A study of Mus musculus with 18 samples.

Results

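Gene expression in the interparietal bone, a flat bone at the back of the skull roof, was compared between day 4 and day 2 after ischemic injury in BALB/c mice. The comparison used 6 of the 18 libraries of the series, 3 from each day, and covered every gene of the deposited count table with copies of identical lines kept once. That left 25918 genes, of which 17450 had enough counts to be tested. No gene was left out of the test for its change, and genes were picked out for naming partly by their values. The 3 control libraries of the same strain and bone served to estimate the spread between libraries and as a reference level. The labels give the control treatment as a control only, and neither the way the injury was made, nor any surgery in controls, nor the age of the mice is stated. The tissue was a piece of whole bone that held the ischemic and surrounding region, so each library mixes bone cells, marrow, vessels and what adheres to the bone. The labels do not say whether each library came from a separate animal, and p-values therefore measure the spread between these libraries.

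Flat skull bones are 2 thin plates of bone around spaces filled with marrow. Osteoblasts lay down a matrix of type I collagen, osteocytes are osteoblasts buried in that matrix, and osteoclasts resorb it. The marrow makes red cells, platelets, granulocytes, monocytes and lymphocytes, and the sutures and periosteum hold fibrous and cartilage-like tissue. Damaged bone and marrow are known to pass through an early phase of low oxygen, chemokine release, neutrophil entry and matrix breakdown, and later to form matrix and rebuild vessels and marrow.

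The 9 skull libraries held between 13142770 and 15445503 counts. Levels are CPM, counts scaled to a common library total after TMM normalization, and changes are log2 fold changes of day 4 over day 2 with their standard error (±) from edgeR. Values of a day are listed in the order of replicates 1, 2 and 3. The defining bone markers Col1a1, Ibsp, Dmp1 and Ctsk were present in every skull library, and genes of the Y chromosome were found in all of them with 0 to 7 counts of Xist. Genes of adjoining tissues were present, and those of muscle and choroid plexus were uneven between libraries of the same day. The summed level of 17 skeletal muscle genes was 45.9, 352 and 1337 CPM at day 2 and 2105, 169.6 and 141 CPM at day 4. That of 14 genes of the choroid plexus, the tissue of the brain that makes cerebrospinal fluid and expresses Ttr, was 536, 11848 and 2889 CPM at day 2 and 4505, 2485 and 957 CPM at day 4. The summed level of 18 neuronal genes was lower in all 6 of these libraries (222, 424 and 389 CPM, then 486, 342 and 413 CPM) than in the controls (1431, 1123 and 1294 CPM). Control replicate 3 stood between the other two controls in 271 of the 271 genes that differed most between them, which no other skull library did within its group. Its median position was 64.5% of the way from replicate 2 to replicate 1 (5th to 95th percentile 56.4% to 75.0%). Why it stands there was not tested. The controls enter the estimate of the spread, so p-values may be too small if replicate 3 is not independent of the other controls. Counts without it are given where they move by more than 1.5 times.

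At day 4, 1842 genes were higher and 1930 lower than at day 2 (adjusted p below 0.05, edgeR quasi-likelihood test), or 21.6% of the genes tested, 10.6% higher and 11.1% lower. Of these, 944 changed by at least 2-fold (5.41%), 536 upward and 408 downward. Among called genes 93 fell by 5-fold or more and 57 rose by as much. The libraries of the days did not overlap in 42.6% of all genes tested and in 3750 of the 3772 called genes. A lack of overlap therefore adds little to a call, and it was a condition for naming a gene among the largest rises or falls. The median log2 change over all genes tested was 0.02. Leaving out 1 of the 6 libraries gave 2260 to 3057 called genes, and without control replicate 3 it was 2969. Counts for a gene list are read below against 10.6% and 11.1%, and against these lower totals where a library was left out.

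Among the genes that fell most were those of an arginine-degrading enzyme, neutrophil-attracting chemokines, interleukins and a matrix protease, beside genes of other kinds. Arg1 encodes arginase 1, which splits arginine into urea and ornithine and marks wound macrophages (chr10:24915221-24927484, mm10). It measured 78.5, 64.4 and 101 CPM at day 2 and 0.706, 0.907 and 0.234 CPM at day 4. All 3 day 2 libraries were far above all 3 day 4 libraries, a fall of 130.2-fold (log2 change -7.02 ± 0.44, adjusted p = 9.48e-05), and the controls held 0.134, 0.811 and 0.751 CPM. Nos2, the inducible nitric oxide synthase that uses the same amino acid, measured 22.6, 23.1 and 30.9 CPM at day 2 and 0.898, 1.32 and 1.4 CPM at day 4 (log2 change -4.41 ± 0.31, adjusted p = 7.19e-05). Its day 4 libraries overlapped the control values of 0.538, 1.28 and 1.3 CPM.

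Chemokines of the neutrophil receptor CXCR2 fell to low levels at day 4. Cxcl3 measured 3.32, 5.0 and 9.27 CPM at day 2 and 0, 0.0824 and 0.234 CPM at day 4 (log2 change -5.76 ± 0.77, adjusted p = 0.00258). With 4 counts in the 3 day 4 libraries together, the size of that change is poorly fixed. Cxcl2 measured 4.0, 4.93 and 36.2 CPM at day 2 and 0.449, 0.33 and 0.312 CPM at day 4 (log2 change -5.32 ± 1.04, adjusted p = 0.0102), and its level in day 2 replicate 3 stood well above those of the other two. Cxcl1 (-3.14 ± 0.40) and Cxcl5 (-2.27 ± 0.46) fell as well. The monocyte attractants Ccl2 (-3.31 ± 0.43) and Ccl7 (-3.48 ± 0.69), both ligands of the receptor CCR2, fell from 17.2, 22.9 and 25.8 to 2.57, 2.31 and 1.71 CPM and from 26.2, 28.2 and 42.1 to 4.49, 2.47 and 1.56 CPM. Prok2, a secreted protein of neutrophils and other cells, fell by 39.7-fold, from 22, 34.8 and 23 to 0.77, 0.495 and 0.701 CPM (log2 change -5.31 ± 0.86, adjusted p = 0.00525).

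Of the interleukins, Il6 measured 22, 11.2 and 23.9 CPM at day 2 and 0.0641, 1.81 and 0.234 CPM at day 4 (log2 change -4.81 ± 0.90, adjusted p = 0.00856). Its related cytokines Il11 (9.49, 5.33 and 13.9 CPM at day 2 and 0.641, 0.247 and 0.546 CPM at day 4, log2 change -4.27 ± 0.46, adjusted p = 4.43e-04) and Lif (-1.83 ± 0.27) fell too. Day 2 and day 4 libraries did not overlap for any of the 3. In a list of 21 tested cytokines and chemokines, 11 were called lower and 0 higher, with a median log2 change of -1.08. Not all inflammatory transcripts were among them. Il1b (-0.72 ± 0.33), Tnf (-0.31 ± 0.46), Cxcl10 (-0.12 ± 0.66) and Tgfb1 (0.24 ± 0.11) did not pass the test. Il1b measured 11.6, 17.6 and 26.6 CPM at day 2 and 7.57, 15.3 and 11.1 CPM at day 4, and those ranges overlapped. The number of called members was 10 to 12 whichever single library was left out, and 10 of the 11 were highest at day 2 in replicate 3.

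**Figure D1:**
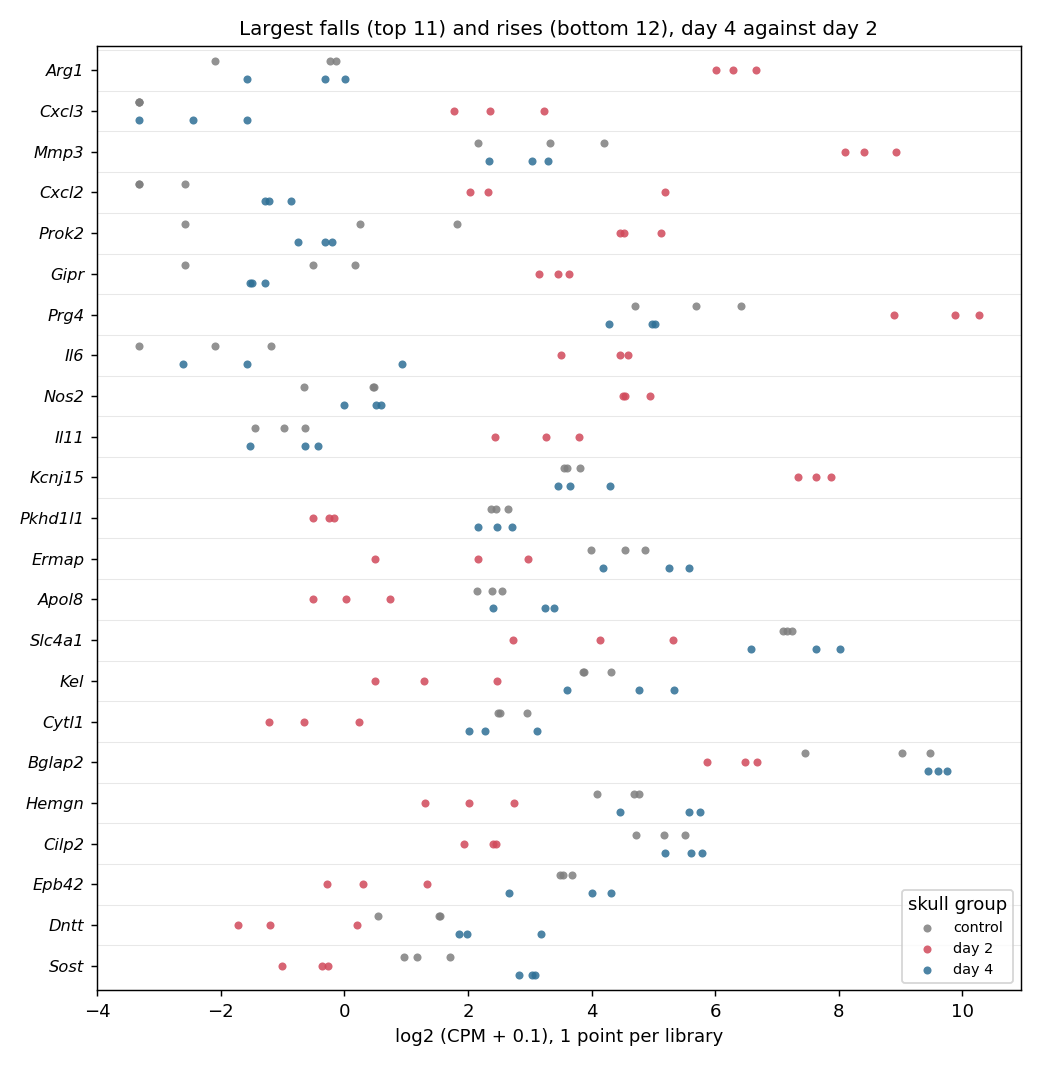
Levels of 11 of the 12 genes with the largest fall and of the 12 with the largest rise between days, as log2 of CPM plus 0.1 (horizontal axis), 1 point per library for controls, day 2 and day 4. In each of the 23 genes the 3 day 2 points lie apart from the 3 day 4 points, which was a condition for choosing them.

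Other leading falls were Mmp3, Prg4, Gipr and Kcnj15. Prg4, lubricin of joint and other surfaces, measured 478, 939 and 1229 CPM at day 2 and 32.3, 31.4 and 19.4 CPM at day 4 (log2 change -4.99 ± 0.58, adjusted p = 0.00186). No day 4 library of Prg4 exceeded the highest control (25.8, 85.5 and 51.6 CPM). The potassium channel gene Kcnj15 fell from 197, 163 and 236 to 19.5, 12.5 and 10.8 CPM (log2 change -3.79 ± 0.23, adjusted p = 7.19e-05), and Gipr, the receptor of an intestinal hormone, from 10.8, 12.3 and 8.81 to 0.257, 0.247 and 0.312 CPM (log2 change -5.25 ± 0.59, adjusted p = 5.76e-04). Among the 12 largest rises, Apol8 went from 1.56, 0.60 and 0.921 to 9.43, 5.19 and 10.4 CPM (log2 change 3.01 ± 0.38, adjusted p = 9.00e-04) and Pkhd1l1 from 0.746, 0.60 and 0.789 to 5.45, 4.37 and 6.47 CPM (log2 change 2.92 ± 0.26, adjusted p = 1.75e-04), and the others are given with bone and marrow.

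Genes of glycolysis and of the hypoxia response fell nearly as a block. Hypoxia-inducible factors are transcription factors that accumulate when oxygen is low, bind the core letters ACGTG and raise glucose transporters, glycolytic enzymes and the vessel growth factor Vegfa. Of 21 tested genes on this list, 18 were called lower and 0 higher, with a median log2 change of -1.32. Between 17 and 18 were called lower whichever library was left out. The share of called members, 18 of 21, compares with 11.1% of all genes lower. The summed level of the list was 3752, 3953 and 4266 CPM at day 2 and 1866, 1745 and 1903 CPM at day 4. Controls held 2269, 2530 and 2314 CPM, so every day 4 library was below every control. The control mean was below the day 4 mean in 3 of the 18 genes called lower.

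Car9, a carbonic anhydrase and a classical hypoxia target, showed the largest change of the list. It measured 14.7, 15.1 and 19.6 CPM at day 2 and 2.44, 2.56 and 2.88 CPM at day 4 (log2 change -2.65 ± 0.27, adjusted p = 3.83e-04), while controls held 3.5, 1.62 and 3.0 CPM. Bnip3, a mitophagy receptor, measured 45.5, 42.1 and 63.7 CPM at day 2 and 12.4, 9.31 and 9.51 CPM at day 4 (log2 change -2.27 ± 0.19, adjusted p = 1.38e-04). Egln3, one of the oxygen-sensing hydroxylases, fell by 4.51-fold (log2 change -2.17 ± 0.23, adjusted p = 4.38e-04). Day 4 libraries of Bnip3 and Egln3 were all below the control values of 19.6, 15.1 and 16.3 and 9.95, 10.6 and 11.6 CPM. Ankrd37, another target, gave -2.24 ± 0.41.

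Among glucose-handling genes, the transporter Slc2a1 measured 74, 87.3 and 85.2 CPM at day 2 and 28.7, 29.9 and 21.1 CPM at day 4 (log2 change -1.63 ± 0.20, adjusted p = 0.00114). Pgk1, phosphoglycerate kinase, measured 125, 133 and 132 CPM at day 2 and 36.2, 41.1 and 46.3 CPM at day 4 (log2 change -1.66 ± 0.13, adjusted p = 1.06e-04). Ldha, which turns pyruvate into lactate, measured 747, 745 and 802 CPM at day 2 and 279, 320.1 and 321 CPM at day 4 (log2 change -1.32 ± 0.12, adjusted p = 1.75e-04). In each of these all day 4 libraries were below all day 2 libraries and overlapped or lay just below the controls (291, 394 and 328 CPM for Ldha). The kinases Pfkl (-1.28 ± 0.09), Pfkfb3 (-1.36 ± 0.14) and Hk2 (-1.28 ± 0.19), enolase Eno1 (-1.51 ± 0.17) and Pkm (-1.22 ± 0.15) fell by similar amounts, and Aldoa by less (-0.58 ± 0.14). Gapdh was called lower (-1.49 ± 0.16), but it has many near-identical pseudogenes that may take its reads, so its level is uncertain. Vegfa measured 287, 281 and 384 CPM at day 2 and 102, 88.5 and 84.6 CPM at day 4 (log2 change -1.79 ± 0.15, adjusted p = 1.55e-04). The 3 members that did not pass were Slc2a3 (0.39 ± 0.18), Hk1 (-0.19 ± 0.18) and Aldoc (-0.41 ± 0.59).

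Promoters of these genes were searched for ACGTG on either strand in the 250 bases before each RefSeq start listed (GRCm38.p6). A match at any listed start of a gene counted. It was present in 13 of the 20 list genes with a promoter, among them 13 of the 18 that were called lower, and in 23.7% of the 12256 tested genes with a promoter. The match describes these letters and is not evidence of binding. The list was made of known genes of glycolysis and the hypoxia response, so its share describes the list. The stretches are those of the 6 called genes with a match and the smallest adjusted p, to show where the letters sit. They read 5′ to 3′ in the direction of the gene, with the match in capitals, either ACGTG or its reverse complement CACGT.
Pgk1, chrX:106186957-106186986, gene on the plus strand: aaatggaagtagCACGTctcactagtctcg
Bnip3, chr7:138909596-138909625, gene on the minus strand: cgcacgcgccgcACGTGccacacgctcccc
Vegfa, chr17:46025357-46025386, gene on the minus strand: ggagtgcgtgccCACGTcagagagcaacat
Ldha, chr7:46845758-46845787, gene on the plus strand: cgtgggttcccgCACGTccgctgggctccc
Pfkfb3, chr2:11553972-11554001, gene on the minus strand: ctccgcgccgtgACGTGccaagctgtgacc
Car9, chr4:43506996-43507025, gene on the plus strand: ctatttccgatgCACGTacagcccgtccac
The match lay 18 bases before the RefSeq start used in Car9, 34 in Ldha, 60 in Pfkfb3, 107 in Bnip3, 131 in Pgk1 and 211 in Vegfa. Such a start can lie inside the gene as annotated elsewhere. For example, the Car9 stretch lies within the GENCODE M21 range of that gene (chr4:43506966-43513729), not before it. Where several starts were listed, the first with a match is shown. Other stretches, such as that of Vegfa, may therefore also lie inside their gene and away from its main start.

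Chaperones of the endoplasmic reticulum fell, while the regulators Atf4, Ddit3 and Xbp1 of the same stress response did not pass the test. In the unfolded protein response, ATF6 and XBP1 raise chaperones through a composite element, CCAAT and CCACG with 9 bases between them, and ATF4 raises amino acid synthesis genes. Of 20 tested members 13 were called lower and 0 higher (median -0.52), and 11 to 13 were whichever library was left out. Hspa5, the chaperone BiP, measured 1573, 1463 and 1755 CPM at day 2 and 706, 877 and 681 CPM at day 4 (log2 change -1.08 ± 0.11, adjusted p = 4.13e-04). Hsp90b1 measured 949.7, 959.9 and 1159 CPM at day 2 and 464, 534 and 430.0 CPM at day 4 (log2 change -1.1 ± 0.12, adjusted p = 4.43e-04). Both were separated widely between days, and day 4 lay nearer to the controls (658, 689.6 and 648 CPM for Hspa5). The disulfide isomerases Pdia6 (-0.91 ± 0.09) and Pdia4 (-1.0 ± 0.11), and the ATF4-type genes Asns (-0.90 ± 0.15), Psat1 (-0.82 ± 0.12) and Trib3 (-1.37 ± 0.26), fell too. The changes of the 3 regulators were -0.15 ± 0.11 for Atf4, -0.15 ± 0.12 for Ddit3 and -0.16 ± 0.09 for Xbp1.

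The composite element was found, on either strand, in 6 of the 19 list members with a promoter, all 6 called lower. It was found in 19 of the 12256 tested genes with a promoter (0.155%). Of the members called lower, 12 had a promoter and 6 of these held the element. The list was made of known genes of this response, so its share describes the list and is not evidence of binding in these data. All 6 are printed because the element is rare among the promoters searched. Capitals mark the fixed letters, which read CGTGG and ATTGG where the match lies on the opposite strand.
Hspa5, chr2:34772020-34772049, gene on the plus strand: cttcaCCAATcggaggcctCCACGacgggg
Hsp90b1, chr10:86705527-86705556, gene on the minus strand: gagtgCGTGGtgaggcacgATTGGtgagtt
Pdia6, chr12:17266486-17266515, gene on the plus strand: agagaCCAATgaaaggcggCCACGgcgtgg
Creld2, chr15:88819515-88819544, gene on the plus strand: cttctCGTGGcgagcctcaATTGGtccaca
Calr, chr8:84847069-84847098, gene on the minus strand: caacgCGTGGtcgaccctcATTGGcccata
Dnajc3, chr14:118937822-118937851, gene on the plus strand: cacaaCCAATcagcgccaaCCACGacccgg
Their log2 changes were -1.08 ± 0.11, -1.1 ± 0.12, -0.91 ± 0.09, -0.55 ± 0.10, -0.45 ± 0.11 and -0.40 ± 0.08 in the order printed. Calr was not called without day 2 replicate 2 or 3 or day 4 replicate 1 or 3 (adjusted p 0.0584 to 0.0819).

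Cytosolic and mitochondrial chaperones of the heat shock list fell in 6 of 16 cases with 0 higher (median -0.51). Hspd1, the mitochondrial chaperonin, had the clearest fall, from 291, 289 and 296 to 130.5, 151 and 134 CPM (log2 change -1.08 ± 0.08, adjusted p = 8.98e-05). Hsp90aa1 fell from 371, 393 and 406 to 223, 216 and 204 CPM (log2 change -0.86 ± 0.09, adjusted p = 4.43e-04) and ended below every control library (341, 424 and 362 CPM). Hspa8 (-0.55 ± 0.09) and Hspe1 (-0.58 ± 0.12) fell by less. The near-identical pair Hspa1a (-1.88 ± 0.69) and Hspa1b (-2.02 ± 0.68), whose reads cannot be split with certainty, did not pass. Without control replicate 2, 10 members were called lower. Of 20 genes of cholesterol synthesis and uptake 10 were lower and 0 higher (median -0.55). Cyp51, a sterol demethylase, measured 81.1, 79.7 and 81.5 CPM at day 2 and 22.6, 42.7 and 32 CPM at day 4 (log2 change -1.32 ± 0.18, adjusted p = 0.00178), and Hmgcs1 (-0.72 ± 0.11), Sqle (-0.92 ± 0.20), Msmo1 (-0.63 ± 0.12) and Sc5d (-0.43 ± 0.09) fell as well. Without day 2 replicate 2 or day 4 replicate 1, 6 members were called. Day 4 replicate 1 was the lowest of its day in all 10.

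Cell cycle genes were lower at day 4. All 20 DNA replication genes had a lower fitted level, 14 of them called (median -0.67). Among mitosis genes 11 of 20 were called lower and 0 higher (median -0.77). Mcm6, a subunit of the replicative helicase, measured 82.2, 69.7 and 76.8 CPM at day 2 and 42.7, 38.5 and 51.2 CPM at day 4 (log2 change -0.79 ± 0.15, adjusted p = 0.00602). Cdk1, the kinase that starts mitosis, measured 70.8, 63.3 and 59 CPM at day 2 and 23.7, 28.5 and 36.9 CPM at day 4 (log2 change -1.12 ± 0.19, adjusted p = 0.00407). Polymerase genes Pole (-0.93 ± 0.13) and Pola1 (-0.60 ± 0.11), the clamp gene Pcna (-0.58 ± 0.11), Gins2 (-1.37 ± 0.26) and the mitotic genes Ccnb1 (-1.02 ± 0.16), Tpx2 (-0.93 ± 0.15) and Ccna2 (-0.78 ± 0.14) fell too. Top2a fell from 254, 212 and 202 to 112, 108 and 139.9 CPM (log2 change -0.89 ± 0.16, adjusted p = 0.0057). Control libraries were lower still (53.8, 82.1 and 67.1 CPM for Top2a), and the control mean was below the day 4 mean for all 14 replication and all 11 mitosis calls. Mki67, the common marker of cycling cells, did not pass (-0.11 ± 0.18), and its day 4 values of 214, 174 and 284 CPM overlapped those of day 2, 284, 221 and 221 CPM. These counts depended on single libraries. Omitting replicate 1 of either day left 9 replication genes called, and omitting day 4 replicate 2 left 8. Mitosis genes were called in 7 cases without day 2 replicate 1 or day 4 replicate 2, 5 without day 4 replicate 1 and 18 without control replicate 2. Day 2 replicate 1 was the highest of its day in 13 of the 14 replication and 10 of the 11 mitosis calls, and so was day 4 replicate 3 of its day.

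Ribosomal and respiratory chain genes had slightly lower fitted levels at day 4. All 27 tested cytosolic ribosomal protein genes and all 25 respiratory chain genes had a lower fitted level, with medians of -0.26 and -0.24, against 0.02 over all genes. The test called 8 and 7 of them. Rpl4 measured 1186, 1084 and 1072 CPM at day 2 and 823, 963 and 917 CPM at day 4 (log2 change -0.31 ± 0.09, adjusted p = 0.031) and Atp5b measured 592, 643 and 581 CPM at day 2 and 442, 493 and 474 CPM at day 4 (log2 change -0.37 ± 0.08, adjusted p = 0.0106). For both the ranges did not overlap, though the difference was under 1.5-fold, and Rpl4 was not called without control replicate 3 or any compared library but day 4 replicate 2 (adjusted p 0.0605 to 0.119). Cox7b (-0.46 ± 0.08), Uqcrc2 (-0.38 ± 0.08) and Ndufa4 (-0.41 ± 0.09) of the chain fell, as did Rpl5 (-0.55 ± 0.12), Rps3 (-0.39 ± 0.09), Rps2 (-0.82 ± 0.20) and Rpl23 (-0.33 ± 0.08), whose pseudogenes make the split of reads uncertain. Without day 2 replicate 1 no ribosomal protein gene was called, and without other single libraries 2, 3 or 5 were (day 2 replicate 2 or day 4 replicate 1, day 2 replicate 3, and day 4 replicate 3). Without control replicate 2, 13 respiratory chain genes were called.

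Matrix-degrading enzymes and their inhibitors formed the other large fall. Metalloproteinases cut collagen and other matrix proteins and are held in check by the Timp inhibitors. Of 17 tested members 9 were called lower and 1 higher (median -0.87). Mmp13, the collagenase of osteoblasts and cartilage, measured 12871, 11112 and 17334 CPM at day 2 and 2156, 3319.5 and 2085 CPM at day 4 (log2 change -2.45 ± 0.23, adjusted p = 2.80e-04). Mmp3, stromelysin 1, measured 342, 274 and 486 CPM at day 2 and 8.15, 9.73 and 4.99 CPM at day 4, a fall of 48.1-fold (log2 change -5.59 ± 0.56, adjusted p = 0.00103). Mmp10 is its close relative and fell from 1.63, 0.80 and 3.35 to 0.257, 0.0824 and 0.0779 CPM (log2 change -3.65 ± 0.74, adjusted p = 0.00817), with 6 counts in all at day 4. Day 4 libraries of Mmp3 lay among the controls (4.37, 18.2 and 9.9 CPM), whereas those of Mmp13 were above all controls (1016, 1326 and 1104 CPM). The inhibitor Timp1 fell in the same interval, from 1038, 1039 and 1161 to 129.7, 258 and 196 CPM (log2 change -2.47 ± 0.29, adjusted p = 0.00123). The aggrecanases Adamts1 (-1.61 ± 0.25), Adamts4 (-0.87 ± 0.19) and Adamts5 (-0.94 ± 0.19) fell, whereas Mmp2 (0.15 ± 0.11), Mmp14 (0.25 ± 0.12) and Mmp9 (0.08 ± 0.25) did not pass. Adamts4 was not called without day 2 replicate 3 or day 4 replicate 1 or 3 (adjusted p 0.0534 to 0.0597). The member that rose was Mmp8, the neutrophil collagenase (1.05 ± 0.24), which was not called without day 2 replicate 2 or 3.

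Mmp3 (chr9:7445822-7455975), Mmp10 (chr9:7502352-7510240) and Mmp13 (chr9:7272514-7283331) lie in 1 cluster on chromosome 9 (mm10). These 3 were also the only ones of 11 list members with a promoter in the table to hold the AP-1 letters TGANTCA in the 250 bases before the start, against 5.96% of all tested genes with a promoter. They are shown because all 3 fell. Of the list members called lower, 6 had a promoter and 3 of these held the letters. The match is not evidence of binding. The stretches read in the direction of the gene with the fixed letters in capitals, and all 3 genes lie on the plus strand.
Mmp3, chr9:7445765-7445794, gene on the plus strand: ggaagcaattaTGAgTCAgttttcgggtga
Mmp10, chr9:7502268-7502297, gene on the plus strand: tagcacccatgTGAgTCAtgcttagtgacc
Mmp13, chr9:7272468-7272497, gene on the plus strand: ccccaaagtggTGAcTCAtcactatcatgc
The match lay 46, 63 and 35 bases before the start. Fosl1, a subunit of AP-1 itself, fell from 24.3, 24.5 and 30.2 to 2.76, 3.96 and 3.51 CPM (log2 change -2.95 ± 0.19, adjusted p = 7.19e-05), and Junb fell by less (-1.01 ± 0.15). Fos (1.08 ± 0.80), Jun (-0.44 ± 0.48) and Fosl2 (-0.38 ± 0.26) did not pass. A part of AP-1 in the changes of the Mmp genes was not tested.

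Structural matrix genes split. Of 21 collagens 10 were called higher and 1 lower (median 0.33). Col1a1, the main chain of bone collagen, measured 33874, 30863 and 25334 CPM at day 2 and 46937, 69009.8 and 66444 CPM at day 4 (log2 change 1.02 ± 0.25, adjusted p = 0.0175). Col11a2 measured 794, 745 and 454 CPM at day 2 and 2197, 2862 and 2826 CPM at day 4 (log2 change 1.98 ± 0.30, adjusted p = 0.00331). Every day 4 library was above every day 2 library in both, though Col1a1 was not called without day 2 replicate 2 or 3 or day 4 replicate 2 or 3 (adjusted p 0.0528 to 0.0682), and Col1a2 (0.92 ± 0.26), Col22a1 (1.46 ± 0.27), Col24a1 (1.2 ± 0.26) and Col14a1 (0.63 ± 0.09) rose likewise. Col12a1, a fibril-associated collagen, was the member that fell (-0.63 ± 0.13). Col3a1 (-0.21 ± 0.16) and the basement membrane chain Col4a1 (-0.29 ± 0.13) did not pass. Collagens called higher numbered 4 to 6 without day 2 replicate 1, 2 or 3 or day 4 replicate 2 or 3, and 3 were called lower without control replicate 2. Of 24 other matrix and crosslinking genes 10 fell and 5 rose. Lysyl oxidase Lox, which crosslinks collagen, fell from 2243, 1998 and 2370.4 to 675, 1130.3 and 817 CPM (log2 change -1.33 ± 0.19, adjusted p = 0.00189). The prolyl hydroxylase P4ha1 (-0.88 ± 0.13), the lysyl hydroxylase Plod2 (-0.72 ± 0.14), Loxl3 (-0.77 ± 0.09), Ctgf (-1.25 ± 0.14) and fibronectin Fn1 (-0.66 ± 0.15) fell also. The 5 that rose were Fmod (1.21 ± 0.17), Sparc (0.78 ± 0.22), Thbs1 (0.76 ± 0.14), Loxl1 (0.48 ± 0.08) and Bgn (0.45 ± 0.11), and 3 were called without day 2 replicate 2 or 3 or day 4 replicate 2 or 3.

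**Figure D2:**
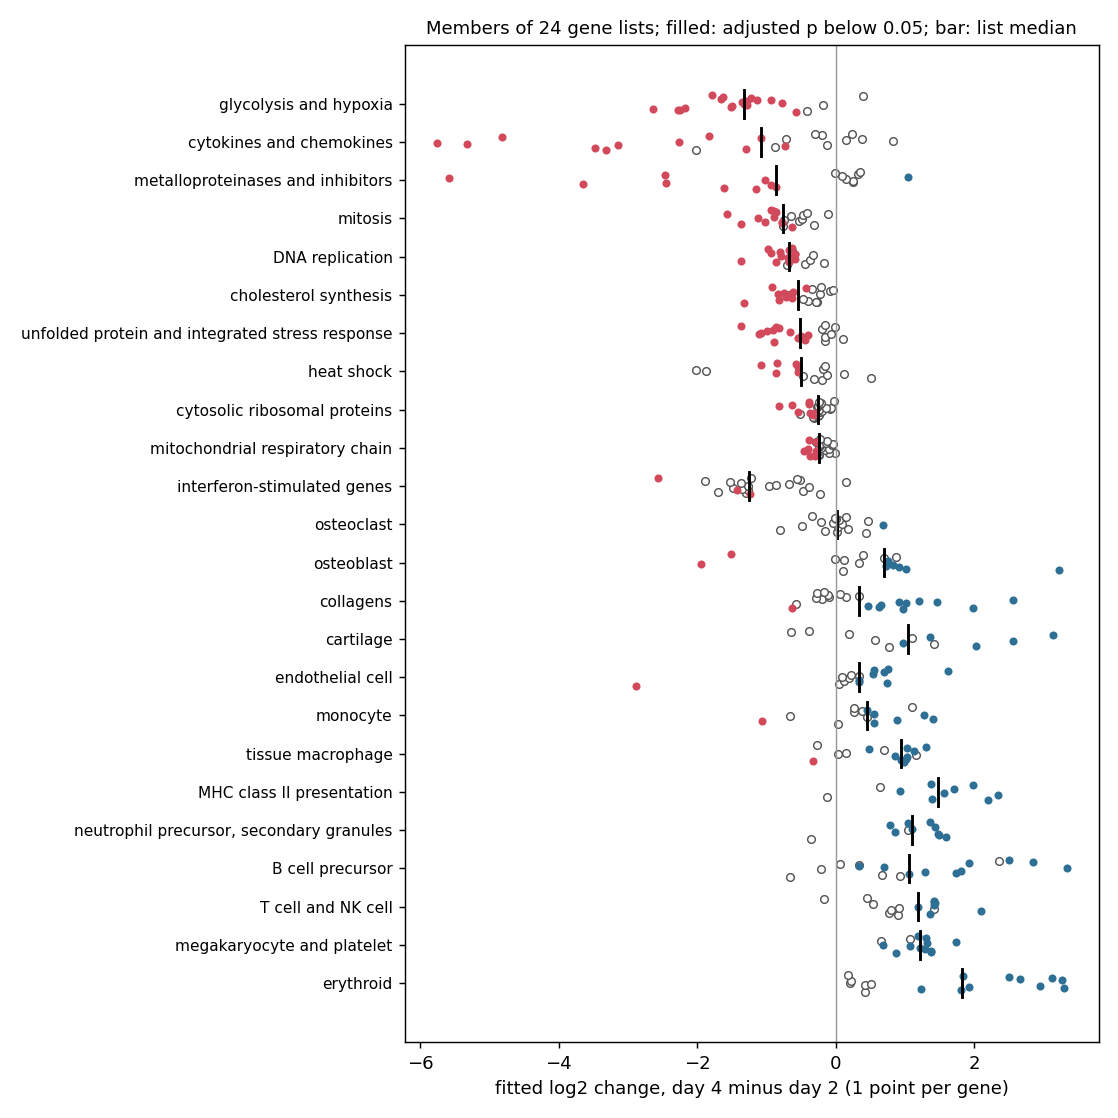
Fitted log2 change of day 4 over day 2 (horizontal axis) for the tested members of 24 gene lists, 1 point per gene, filled where the adjusted p is below 0.05 and with a bar at the list median. Of the 21 glycolysis and hypoxia genes 20 lie left of 0 with a median of -1.32, all 16 erythroid genes lie right of 0 with a median of 1.82, and osteoblast genes lie on both sides.

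Osteoblast genes moved in both directions between days. In bulk tissue fewer cells of a type and less RNA per cell cannot be told apart, here and for the cell types below. Of 15 tested osteoblast genes 6 were called higher and 2 lower (median 0.69). Bglap2 encodes osteocalcin, a late osteoblast product (chr3:88377736-88378699, mm10). It measured 89.4, 102 and 58.3 CPM at day 2 and 782, 694 and 865 CPM at day 4 (log2 change 3.23 ± 0.50, adjusted p = 0.00504). All day 2 libraries were below all control libraries (713, 175 and 519 CPM), and the day 4 libraries ranged around the highest control. Its copies Bglap and Bglap3 are nearly identical, so reads of these genes may be shared. Dlx5 (0.83 ± 0.12), a transcription factor of the lineage, and Omd (0.75 ± 0.16), osteomodulin, rose by less.

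The 2 osteoblast genes that fell encode phosphoproteins of early mineralizing matrix. Ibsp, bone sialoprotein, measured 8533, 7651 and 7359.5 CPM at day 2 and 1015, 3024 and 2072 CPM at day 4 (log2 change -1.95 ± 0.33, adjusted p = 0.00559). Spp1, osteopontin, which macrophages and other cells also make, measured 7960.3, 7204 and 12309 CPM at day 2 and 2878, 3774 and 2974 CPM at day 4 (log2 change -1.51 ± 0.23, adjusted p = 0.00231). Neither overlapped between days, and in both the day 4 libraries were still above all controls (615, 729 and 653 CPM for Ibsp and 2080.3, 1405 and 1824 CPM for Spp1). The lineage regulators Runx2 (-0.02 ± 0.12) and Sp7 (0.40 ± 0.19) and the phosphatase Alpl (0.10 ± 0.15) did not pass the test. Osteoblast genes called higher numbered 3 without day 2 replicate 2 or 3 or day 4 replicate 2 or 3. Day 4 replicate 1 was the lowest of its day for 5 of the 6.

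Osteocyte genes were likewise divided, 4 higher and 3 lower of 10. Sost encodes sclerostin, the inhibitor of Wnt signalling made by mature osteocytes, and was the gene with the largest rise of all genes that met the naming rule. It measured 0.678, 0.733 and 0.395 CPM at day 2 and 6.99, 8.41 and 8.1 CPM at day 4 (log2 change 3.68 ± 0.32, adjusted p = 1.69e-04), against 2.15, 3.17 and 1.84 CPM in controls. Every day 4 library exceeded every control and every day 2 library lay below every control. Another Wnt inhibitor, Dkk1, measured 7.53, 8.33 and 4.67 CPM at day 2 and 14.9, 25.2 and 16.3 CPM at day 4 (log2 change 1.46 ± 0.26, adjusted p = 0.00444). Phex, a protease-like regulator of phosphate, rose from 58.4, 59.8 and 42.5 to 119, 171 and 133 CPM (log2 change 1.39 ± 0.27, adjusted p = 0.00875), and Fbln7 from 11.3, 12.3 and 12 to 33.8, 32.4 and 34.4 CPM (log2 change 1.5 ± 0.09, adjusted p = 3.64e-05). The 3 that fell were Pdpn (-1.32 ± 0.23), of osteocytes that are still being embedded, Dmp1 (-0.65 ± 0.15) and Tnfrsf11b. Dmp1 was not called without day 2 replicate 3 or day 4 replicate 1 (adjusted p 0.0504 and 0.0572). Osteocyte genes called higher numbered 4 or 5 whichever library was left out.

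**Figure D3:**
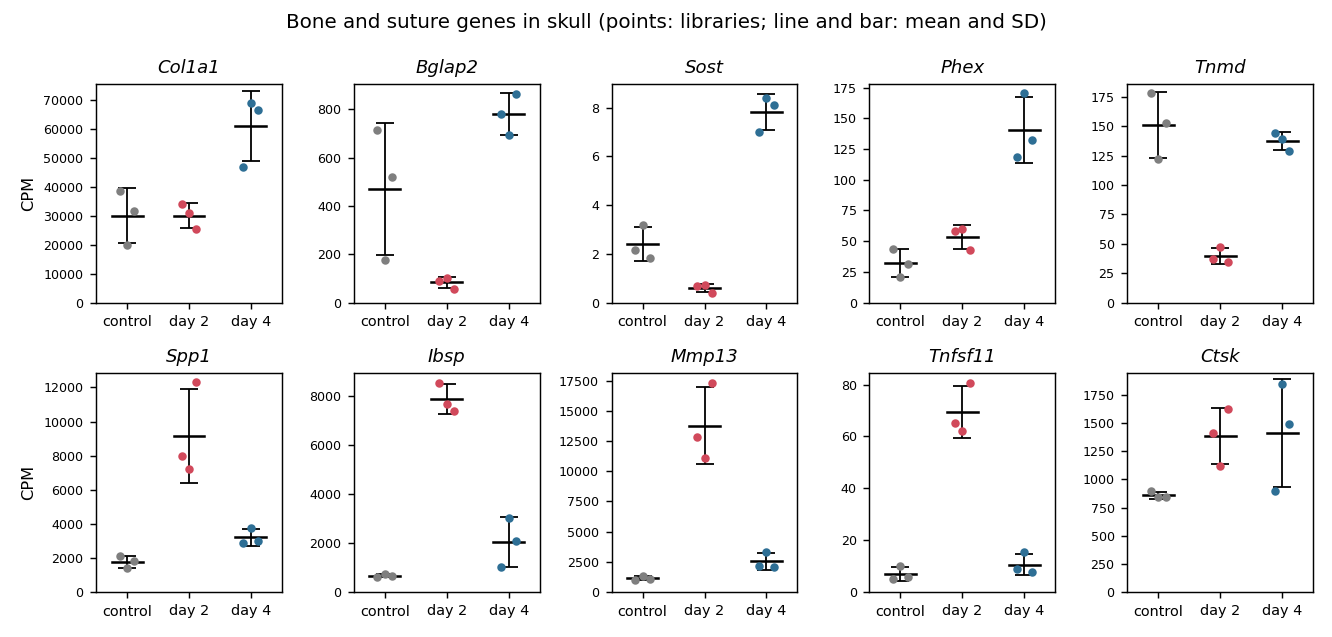
CPM of 10 bone and suture genes (vertical axes) in control, day 2 and day 4 libraries, with points for libraries and line and bar for mean and SD. Col1a1, Bglap2, Sost, Phex and Tnmd are higher at day 4 than at day 2, Spp1, Ibsp, Mmp13 and Tnfsf11 lower, and Ctsk overlaps between days.

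RANK ligand and Csf1, which drive osteoclast formation, fell, while osteoclast genes were, with 1 exception, not called. Of 19 RANK ligand, parathyroid hormone and IGF genes 7 were lower and 2 higher, Csf1r (0.88 ± 0.13) and Vdr (0.88 ± 0.26), and Vdr was not called without control replicate 3 or any one of the 6 compared libraries. RANK ligand, encoded by Tnfsf11, induces osteoclasts, and osteoprotegerin, encoded by Tnfrsf11b, is its decoy receptor. Tnfsf11 measured 65.1, 62.1 and 80.7 CPM at day 2 and 8.79, 15.2 and 7.64 CPM at day 4 (log2 change -2.72 ± 0.32, adjusted p = 0.00116). Tnfrsf11b measured 56.8, 44.5 and 52 CPM at day 2 and 13.7, 18.1 and 16.1 CPM at day 4 (log2 change -1.68 ± 0.17, adjusted p = 3.90e-04). Ligand and decoy thus were both lower at day 4, without overlap, and Csf1, the macrophage growth factor that osteoclast precursors need, fell from 205, 188 and 207 to 107, 136 and 119 CPM (log2 change -0.73 ± 0.09, adjusted p = 9.63e-04). Among 17 osteoclast genes only the integrin Itgb3 was called (2 genes without day 4 replicate 1), and it was higher (0.67 ± 0.15), and platelets express it as well. Ctsk, the collagen-cutting cathepsin of osteoclasts, measured 1417, 1122 and 1623 CPM at day 2 and 899.8, 1853 and 1489 CPM at day 4 (0.03 ± 0.24, not called). Acp5 gave 0.44 ± 0.24 and Calcr -0.81 ± 0.28, neither called. The summed level of the list was 3597, 2863 and 3976 CPM at day 2, 2575, 4704 and 4049.9 CPM at day 4 and 2186, 2292 and 2166 CPM in controls. Day 4 replicate 1 was below all day 2 libraries and the other day 4 libraries above them.

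In the Wnt pathway 7 of 25 genes rose and 5 fell. Besides Sost and Dkk1, the co-receptor Lrp5 rose from 81.2, 91.7 and 79.2 to 162, 165 and 186 CPM (log2 change 1.02 ± 0.14, adjusted p = 0.00161), as did the R-spondins Rspo3 (0.88 ± 0.11) and Rspo2 (1.28 ± 0.27). The secreted antagonist Sfrp4 fell from 841, 706 and 1029 to 213, 155 and 149 CPM (log2 change -2.32 ± 0.32, adjusted p = 0.00272), and the receptor Fzd1 (-1.12 ± 0.11) and ligand Wnt5a (-0.94 ± 0.15) fell. The pathway targets Axin2 (-0.20 ± 0.14) and Lef1 (0.05 ± 0.32) did not pass. Among 23 TGF-beta and BMP genes 6 rose and 2 fell. Inhba, the subunit of activin A, fell from 182, 133 and 229.9 to 33.8, 51.8 and 36.1 CPM (log2 change -2.16 ± 0.30, adjusted p = 0.00244). Bmp4 (0.96 ± 0.12), its antagonist Nog (1.32 ± 0.14) and the inhibitory Smad6 (0.82 ± 0.12) rose. The other gene that fell, the BMP antagonist Grem1 (-0.89 ± 0.21), was not called without day 2 replicate 3 or day 4 replicate 1 or 3. Of the IGF binding proteins, Igfbp3 (-1.91 ± 0.20) and Igfbp4 (-0.72 ± 0.08) fell and Igfbp5 (0.04 ± 0.14) did not pass.

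Some genes of cartilage, sutures and tendon rose, and most members of both lists did not pass the test. Cartilage genes were called higher in 5 of 12 cases and lower in 0 (median 1.03). Col2a1, the collagen of cartilage, measured 3.59, 3.53 and 3.48 CPM at day 2 and 35.3, 10.6 and 16.6 CPM at day 4 (log2 change 2.56 ± 0.41, adjusted p = 0.00404), with day 4 replicate 1 well above the other two. Chad, chondroadherin, rose from 9.09, 11.6 and 8.55 to 46.4, 36 and 36.7 CPM (log2 change 2.03 ± 0.21, adjusted p = 4.20e-04) and Cytl1 from 1.08, 0.533 and 0.329 to 8.53, 3.96 and 4.75 CPM (log2 change 3.14 ± 0.45, adjusted p = 0.00164), while Comp gave 1.36 ± 0.36. Omitting control replicate 3, day 2 replicate 1 or 3, or day 4 replicate 2 or 3 left 3 cartilage genes called. Of 14 suture and periosteal genes 4 rose and 0 fell (median 0.06). Tnmd, tenomodulin of tendons and ligaments, measured 36.8, 47.6 and 34.5 CPM at day 2 and 144, 139.6 and 129 CPM at day 4 (log2 change 1.8 ± 0.16, adjusted p = 1.75e-04). Gli1, which marks suture stem cells, measured 16.7, 11.3 and 13.9 CPM at day 2 and 34.3, 32.7 and 28.3 CPM at day 4 (log2 change 1.19 ± 0.14, adjusted p = 7.32e-04). Aspn (0.88 ± 0.23) and Twist1 (0.47 ± 0.13) rose by less. Tnmd and Gli1 were back among their control values (178, 122 and 153 and 34.2, 33.8 and 35.9 CPM) or near them, and 2 members were called without day 2 replicate 1, 2 or 3 or day 4 replicate 1 or 2. Cilp2, a cartilage matrix gene outside these lists and among the leading rises, went from 5.22, 5.4 and 3.75 to 48.7, 36.4 and 55 CPM (log2 change 3.28 ± 0.25, adjusted p = 1.34e-04). Marrow stromal genes went the other way, with 6 of 16 lower and 2 higher. Cxcl14 fell from 612, 768 and 543 to 78.3, 80.5 and 77.9 CPM (log2 change -3.02 ± 0.24, adjusted p = 2.08e-04), Nt5e gave -1.5 ± 0.15 and Cxcl12, which holds blood stem cells in the marrow, gave -0.39 ± 0.11. Cxcl12 was not called without control replicate 3, any day 2 library or day 4 replicate 1 or 2 (adjusted p 0.0635 to 0.1). Stromal genes called lower numbered 3 without day 2 replicate 3 or day 4 replicate 1, and those called higher 0 or 1 without any single one of the 6 compared libraries.

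Red cell membrane and regulator genes rose strongly, whereas haemoglobin genes did not pass the test. Of 16 tested erythroid genes 10 were called higher and 0 lower (median 1.82). Slc4a1, the anion exchanger band 3, measured 39.7, 17.5 and 6.51 CPM at day 2 and 199, 95.2 and 259.7 CPM at day 4 (log2 change 3.12 ± 0.66, adjusted p = 0.0173). Epb42, another membrane protein, measured 2.44, 1.13 and 0.723 CPM at day 2 and 16, 6.26 and 19.8 CPM at day 4 (log2 change 3.29 ± 0.51, adjusted p = 0.00337). Hemgn, an erythroid nuclear factor, measured 6.58, 3.93 and 2.37 CPM at day 2 and 47.9, 22 and 54.1 CPM at day 4 (log2 change 3.27 ± 0.46, adjusted p = 0.00274). In each, day 2 replicate 3 was lowest and day 4 replicate 2 the lowest of its day, and the days did not overlap. The transcription factor Klf1 (2.66 ± 0.59), the receptor Epor (1.92 ± 0.41) and the spectrin Sptb (1.84 ± 0.31) rose too. The membrane genes Kel (3.13 ± 0.58) and Ermap (2.95 ± 0.61), the latter on the list as well, were among the 12 largest rises.

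Hbb-bs, an adult beta-globin gene, measured 7222, 4269 and 1228 CPM at day 2 and 5473, 4117 and 5028 CPM at day 4 (0.20 ± 0.52, not called) and 9734, 12694 and 10337 CPM in controls. Hba-a1 (0.42 ± 0.64) and the haem enzyme Alas2 (0.42 ± 0.68) did not pass either. Globin genes are near-identical pairs, so the split between copies is uncertain. Their day 2 values spread widely, with replicate 3 lowest, and the day 4 values fell inside that spread. The summed list level, mostly globin, was 11189, 6814 and 2002 CPM at day 2 and 9311, 6892 and 9246 CPM at day 4. Members called numbered 6 without day 2 replicate 2 and 7 in a fit of the day 2 and day 4 libraries alone. Slc4a1 was not called without day 2 replicate 2 or day 4 replicate 3 or in the fit of those 6 libraries (adjusted p from 0.0516 to 0.0601), nor Ermap without day 2 replicate 2 (adjusted p = 0.0502). Of 19 genes of haem synthesis and iron handling 7 rose and 2 fell, and 4 were called higher without day 2 replicate 3 or day 4 replicate 1 or 3. The mitochondrial iron importer Slc25a37 (0.96 ± 0.23) was among those that rose, with Ppox (0.86 ± 0.13) and Abcb10 (0.73 ± 0.14). Hmox1, the haem-degrading enzyme, fell from 319, 413 and 258 to 37.2, 50.9 and 46.9 CPM (log2 change -2.88 ± 0.29, adjusted p = 6.08e-04), and the iron store Fth1 from 2448, 2764 and 2588 to 1350.0, 1183 and 1207 CPM (log2 change -1.06 ± 0.13, adjusted p = 8.53e-04).

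**Figure D4:**
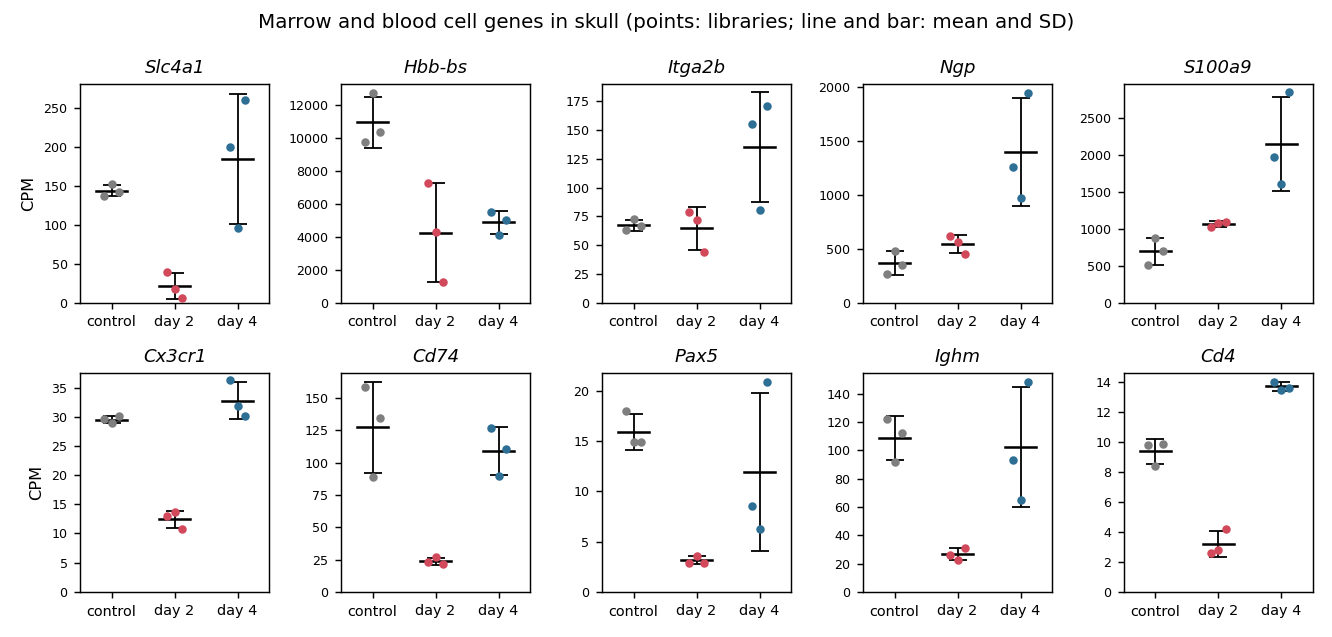
CPM of 10 marrow and blood cell genes (vertical axes) in control, day 2 and day 4 libraries, with points for libraries and line and bar for mean and SD. The day 4 libraries exceed the day 2 libraries in each gene except Hbb-bs, and their spread is wide in Slc4a1, Itga2b, Ngp, Pax5 and Ighm.

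Platelet and megakaryocyte genes were called higher in 11 of 13 cases and lower in 0 (median 1.21). Nfe2, a transcription factor of platelet formation, measured 18.8, 13.7 and 8.35 CPM at day 2 and 43.7, 28.6 and 63.5 CPM at day 4 (log2 change 1.73 ± 0.34, adjusted p = 0.0094). Itga2b, the platelet integrin chain, measured 78.7, 72 and 43.6 CPM at day 2 and 155, 80.6 and 170.4 CPM at day 4 (log2 change 1.06 ± 0.30, adjusted p = 0.0408), with day 4 replicate 2 only just above the highest day 2 library. Itga2b stayed called in the omission of day 4 replicate 2 alone, and leaving out any of the other 8 libraries gave an adjusted p of 0.06 to 0.128. Vwf, von Willebrand factor, which endothelium makes too, rose from 118, 148 and 125 to 312, 239.9 and 339.7 CPM (log2 change 1.19 ± 0.19, adjusted p = 0.00344). The collagen receptor Gp6 gave 1.29 ± 0.30. Day 4 replicate 2 was the lowest of its day in 10 of the 11 genes and day 2 replicate 3 the lowest of its day in 9. The count fell to 3 if day 2 replicate 3 or day 4 replicate 1 or 3 was omitted, and to 6 without day 2 replicate 2 or in the fit of the 6 libraries.

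Genes that neutrophils switch on as they mature in the marrow rose. Among 11 genes of secondary granules 9 were called higher and 0 lower (median 1.1). Camp, a granule antimicrobial peptide, measured 115, 119 and 88.2 CPM at day 2 and 283, 223 and 468 CPM at day 4 (log2 change 1.6 ± 0.27, adjusted p = 0.00507). Ngp, neutrophilic granule protein, measured 617, 561 and 451 CPM at day 2 and 1257, 969 and 1942 CPM at day 4 (log2 change 1.36 ± 0.30, adjusted p = 0.015). Ltf, lactoferrin, measured 329, 269 and 219 CPM at day 2 and 627, 521 and 1044 CPM at day 4 (log2 change 1.42 ± 0.34, adjusted p = 0.0215). Lyz2, lysozyme, which macrophages make too, gave 0.78 ± 0.19. Day 4 replicate 3 was the highest library of its day in all 9 and replicate 2 the lowest. On the list of neutrophil precursors with primary granules 4 of 9 genes were called higher and no other was called. They were Mpo (1.35 ± 0.32), the regulator Gfi1 (1.29 ± 0.26), Nkg7 (1.42 ± 0.37) and Igsf6 (0.76 ± 0.19). Nkg7 counts in the T and NK cell list as well. Elane, which encodes a granule protein as Mpo does, did not pass (1.25 ± 0.41), so the calls do not show a rise of primary granule genes in general. Of 16 mature neutrophil genes 6 were called higher, such as Ly6g (1.59 ± 0.33), Retnlg (1.29 ± 0.28), S100a8 (1.02 ± 0.28) and S100a9 (1.01 ± 0.23). S100a9 measured 1019, 1079 and 1089.9 CPM at day 2 and 1972, 1604 and 2842 CPM at day 4. The other 2 called genes fell, Clec4d (-1.58 ± 0.29) and the decoy receptor Il1r2 (-1.24 ± 0.31), with 1 of them called without day 2 replicate 3 or day 4 replicate 1, and the receptors Cxcr2 (-0.09 ± 0.30) and Csf3r (0.22 ± 0.17) did not pass. These rises rest on few libraries. Omitting day 2 replicate 3 left 1 secondary granule gene called, omitting day 4 replicate 3 left 3, and omitting day 2 replicate 2 left 5. Called genes of the primary granule list numbered 1 without day 2 replicate 2 or 3 and 2 without day 4 replicate 3. Mature neutrophil genes numbered 1 or 2 without day 2 replicate 1, 2 or 3.

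More monocyte, macrophage and dendritic cell genes were called higher than lower. Cx3cr1, the fractalkine receptor of monocytes and macrophages, measured 13, 13.6 and 10.8 CPM at day 2 and 36.2, 31.8 and 30.2 CPM at day 4 (log2 change 1.4 ± 0.12, adjusted p = 1.42e-04). Irf8, a transcription factor of monocytes and dendritic cells, measured 15.3, 18.1 and 15.5 CPM at day 2 and 40.6, 33.6 and 43.4 CPM at day 4 (log2 change 1.27 ± 0.12, adjusted p = 2.61e-04). Ccr2 rose from 76.9, 73.4 and 76.9 to 106, 102 and 123 CPM (log2 change 0.54 ± 0.09, adjusted p = 0.00398), while its ligands fell as given above. The list of 14 monocyte genes had 6 higher and 1 lower, Cd14 (-1.06 ± 0.18). Among 15 tissue macrophage genes 9 were higher and 1, Axl (-0.33 ± 0.10), lower (median 0.94). Mrc1, the mannose receptor, measured 63.1, 65.1 and 56.9 CPM at day 2 and 132, 139.6 and 132 CPM at day 4 (log2 change 1.12 ± 0.10, adjusted p = 2.07e-04). The C1q chains that macrophages make rose together, C1qa (0.94 ± 0.11), C1qb (1.02 ± 0.11) and C1qc (1.03 ± 0.14). The pan-macrophage gene Cd68 did not pass (0.03 ± 0.22). Axl was not called without control replicate 3 or 5 other single libraries. Dendritic cell genes were higher in 7 of 12 cases and lower in 2. Cd209a measured 1.36, 1.93 and 0.723 CPM at day 2 and 8.98, 8.16 and 7.95 CPM at day 4 (log2 change 2.64 ± 0.49, adjusted p = 0.006), and Clec10a (1.95 ± 0.27), Flt3 (1.67 ± 0.29), Siglech (1.77 ± 0.48) and Zbtb46 (0.51 ± 0.11) rose. Siglech was not called without day 2 replicate 1 or 2 or day 4 replicate 1 or 3 (adjusted p 0.0656 to 0.103). The 2 that fell, Batf3 (-1.46 ± 0.42) and Bst2 (-1.24 ± 0.37), were never both called when a library was left out. The summed level of dendritic cell genes was 308, 269 and 389 CPM at day 2 and 309.8, 317 and 318 CPM at day 4, with the day 4 values inside the day 2 range.

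Genes of antigen presentation by MHC class II rose. MHC class II molecules show peptides to helper T cells, Ciita is their master regulator and Cd74 their chaperone. Of 10 tested genes 8 were called higher and 0 lower (median 1.47), and 6 to 8 were whichever library was left out. Cd74 measured 22.9, 26.8 and 21.6 CPM at day 2 and 127, 89.9 and 110.2 CPM at day 4 (log2 change 2.2 ± 0.22, adjusted p = 4.70e-04). H2-Aa measured 2.85, 2.0 and 1.97 CPM at day 2 and 15.3, 9.48 and 9.66 CPM at day 4 (log2 change 2.33 ± 0.33, adjusted p = 0.00166). Ciita measured 3.05, 4.87 and 3.16 CPM at day 2 and 11.1, 8.41 and 9.35 CPM at day 4 (log2 change 1.38 ± 0.22, adjusted p = 0.00266). In each of the 3 the lowest day 4 library was well above the highest day 2 library and within or near the control range (158, 89 and 134 CPM for Cd74). H2-Eb1 (1.98 ± 0.25) and H2-Ab1 (1.57 ± 0.22) rose as well. No member of 13 MHC class I genes was called with all libraries. Without day 2 replicate 3, 3 were called higher.

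Lymphocyte genes were called higher more often than lower in each of the lists. B cell precursor genes were higher in 10 of 17 cases and lower in 0 (median 1.06). Dntt, which adds bases at antigen receptor joints, measured 0.203, 0.333 and 1.05 CPM at day 2 and 3.53, 3.87 and 8.96 CPM at day 4 (log2 change 3.34 ± 0.62, adjusted p = 0.00588). Pax5, the B lineage factor, measured 2.92, 3.6 and 2.89 CPM at day 2 and 8.53, 6.26 and 20.9 CPM at day 4 (log2 change 1.92 ± 0.41, adjusted p = 0.0112). Day 4 replicate 3 was the highest of its day in 8 of the 10 genes. The summed level of the list was 495, 509.6 and 645 CPM at day 2 and 574, 482 and 544 CPM at day 4, and these ranges overlapped. Rag1 (2.85 ± 0.77), Blnk (1.06 ± 0.22) and Vpreb3 (2.5 ± 0.49) rose also. Rag1 was not called without control replicate 3, day 2 replicate 1 or 3 or day 4 replicate 3 (adjusted p 0.0514 to 0.0956). Of the list, 5 members were called without day 2 replicate 1 and 6 without day 2 replicate 2 or 3 or day 4 replicate 3. Of 12 mature B cell genes 4 were higher, led by Ighm (26.3, 22.7 and 31.2 CPM at day 2 and 93, 65 and 148 CPM at day 4, log2 change 1.93 ± 0.29, adjusted p = 0.00344), with Cd22 (0.99 ± 0.30), Ighd (0.93 ± 0.29) and Cd37 (0.85 ± 0.26), but 1 was called without control replicate 3, day 2 replicate 1 or 2 or day 4 replicate 3, and 2 without day 4 replicate 1. Of 8 plasma cell genes 4 rose, among them Jchain (1.81 ± 0.29) and Igkc (1.66 ± 0.28), and 2 fell, Sdc1 (-0.97 ± 0.16), which stromal cells also express, and Derl3 (-1.32 ± 0.38), with 1 called lower without control replicate 3, day 2 replicate 2 or 3 or day 4 replicate 1 or 3. Among 15 T and NK cell genes 7 were higher and 0 lower (median 1.19). Cd4 measured 2.58, 2.8 and 4.21 CPM at day 2 and 14, 13.5 and 13.6 CPM at day 4 (log2 change 2.1 ± 0.20, adjusted p = 2.61e-04), with narrow and separate ranges. Cd4 is also made by some macrophages and dendritic cells. Cd3d measured 1.97, 1.8 and 2.17 CPM at day 2 and 4.81, 4.53 and 5.92 CPM at day 4 (log2 change 1.36 ± 0.30, adjusted p = 0.011), Klrd1 (1.41 ± 0.30) and Il2rb (1.19 ± 0.26) rose too, and Trac (-0.17 ± 0.42) did not pass. T and NK genes called numbered 4 without day 2 replicate 2 or 3 or day 4 replicate 1 or 3. Among 14 stem and progenitor genes 5 rose and 2 fell. Myb, a regulator of immature blood cells, measured 11.2, 11.4 and 12.1 CPM at day 2 and 30.9, 26.7 and 48.6 CPM at day 4 (log2 change 1.61 ± 0.25, adjusted p = 0.00255), Cd48 gave 0.81 ± 0.16 and Procr, which endothelium also expresses, -1.08 ± 0.18, and Kit (0.55 ± 0.20) and Cd34 (0.01 ± 0.10) did not pass. Stem and progenitor genes called higher numbered 3 without day 2 replicate 1, 2 or 3 or day 4 replicate 1 or 3, and 1 was called lower without control replicate 1 or 3, day 2 replicate 3 or any day 4 library.

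More vessel genes were called higher than lower. Apln, apelin, which sprouting tip cells make, measured 72, 63.7 and 64.8 CPM at day 2 and 6.03, 12.7 and 8.49 CPM at day 4 (log2 change -2.89 ± 0.24, adjusted p = 1.75e-04), and its day 4 libraries reached from the control range (5.45, 7.57 and 6.76 CPM) to somewhat above it. In contrast 8 of 15 endothelial genes were called higher, and Apln was the only 1 called lower. Tie1 measured 43.1, 45.5 and 51 CPM at day 2 and 83.1, 75 and 76.5 CPM at day 4 (log2 change 0.75 ± 0.09, adjusted p = 8.56e-04). Stab2, of sinusoidal endothelium, rose from 6.37, 3.33 and 4.93 to 14.7, 12.4 and 17.8 CPM (log2 change 1.62 ± 0.28, adjusted p = 0.00415), and Cldn5 (0.73 ± 0.14) and Tek (0.55 ± 0.12) rose. The common markers Pecam1 (0.21 ± 0.11), Cdh5 (0.05 ± 0.10) and Emcn (0.11 ± 0.13) did not pass. Without day 4 replicate 1, 5 endothelial genes were called higher. Of 10 mural cell genes Rgs5 (0.93 ± 0.10), Myh11 (1.17 ± 0.13) and Notch3 (0.94 ± 0.13) rose and Mcam (-0.64 ± 0.11) fell. Myh11 of smooth muscle measured 43.6, 38.5 and 46.4 CPM at day 2 and 99.1, 82 and 108 CPM at day 4 (log2 change 1.17 ± 0.13, adjusted p = 5.68e-04).

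Interferon-stimulated genes had lower fitted levels in 21 of 22 cases (median -1.26), yet 3 were called. Their summed level was 684, 738 and 1999.7 CPM at day 2 and 531, 546 and 471 CPM at day 4, so that day 2 replicate 3 stood apart from the other two. Ifitm3, which cytokines other than interferons also raise, measured 287, 304 and 446 CPM at day 2 and 125, 123 and 138 CPM at day 4 (log2 change -1.42 ± 0.21, adjusted p = 0.00247). Zbp1, a sensor of nucleic acids, measured 19.1, 15.9 and 74.1 CPM at day 2 and 6.09, 7.91 and 4.36 CPM at day 4 (log2 change -2.57 ± 0.64, adjusted p = 0.0272). Isg15 measured 14.4, 19.8 and 72.7 CPM at day 2 and 14.2, 13.8 and 10.1 CPM at day 4 (-1.49 ± 0.59, not called). The called number was 5 without day 2 replicate 1 and 1 without day 4 replicate 1, 2 or 3 or in the fit of the 6 libraries.

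**Figure D5:**
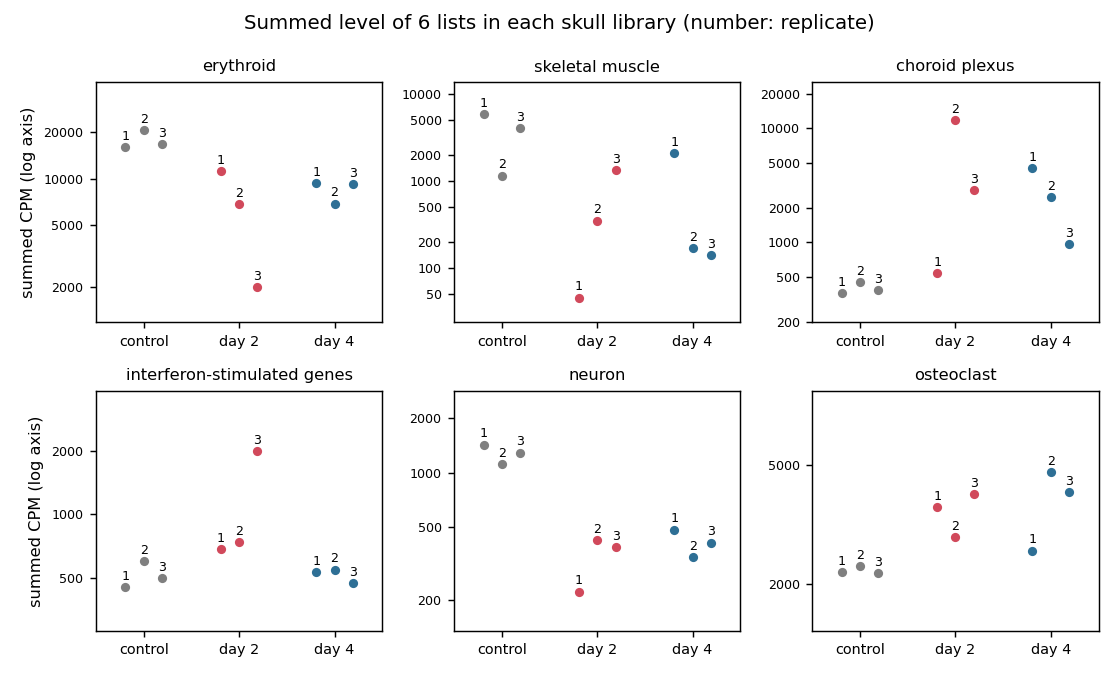
Summed CPM of 6 gene lists (vertical axes, logarithmic) in each skull library, numbered by replicate, for controls, day 2 and day 4. The erythroid list is low and the interferon list high in day 2 replicate 3, and the skeletal muscle and choroid plexus lists vary more within a day than between days.

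No member was called among 17 skeletal muscle, 7 skin, 18 neuronal, 10 cerebellar and 11 oligodendrocyte genes. For muscle, Myh2 gave 2.71 ± 1.6 and Ckm -0.16 ± 1.72, with standard errors that leave the size of either change poorly fixed. For Ckm they allow changes of several fold in either direction. Of 14 choroid plexus genes Steap1 was called lower (-1.52 ± 0.37), a gene not limited to that tissue, and it was not called without day 2 replicate 2 or day 4 replicate 1 or 3. Ttr, the defining marker, measured 72.6, 7433 and 1444 CPM at day 2 and 2559, 1368 and 367 CPM at day 4 (-1.06 ± 1.39, not called), against 1.68, 5.74 and 3.48 CPM in controls. Of 12 astrocyte genes S100b (1.02 ± 0.17) and Fgfr3 (1.04 ± 0.23), which cartilage and bone express as well, rose and Gja1 (-0.40 ± 0.11) fell, while Gfap (-1.45 ± 0.66) and Aqp4 (-0.11 ± 0.61) did not pass. Gja1 was not called without control replicate 3, day 2 replicate 1, 2 or 3 or day 4 replicate 1 or 3, and 1 astrocyte gene was called higher without day 2 replicate 3. Of 15 meningeal fibroblast genes Slc47a1 (1.66 ± 0.20) and Bgn rose and Crabp2 (-1.82 ± 0.13) and Mgp (-0.42 ± 0.13) fell, with 1 called lower without control replicate 3 or any compared library but day 4 replicate 1, and 1 higher without day 2 replicate 3 or day 4 replicate 2 or 3. Their part in the other results was not tested, apart from fits that omitted the genes with 4 times or more the level in brain controls (3960 genes called) or the genes that follow the muscle list (3878 called).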

How the data were processed

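Poly(A) RNA libraries of the interparietal bone were read in pairs, and the raw counts per gene were deposited by the authors. Alignment with HISAT2 2.1.0 to mm10 is named in the submitters' processing notes. No source used here names the counting tool, the annotation or the strand setting, so overlapping and antisense genes cannot be told apart. The count matrix held 26783 lines, of which 865 surplus copies of 49 names were dropped. Genes were kept with edgeR's filterByExpr by group, scaled by TMM and fitted with the robust quasi-likelihood test of edgeR 4.0.16 (R 4.3.3) over all 9 skull libraries, with Benjamini-Hochberg adjustment over all 17450 genes and a threshold of 0.05. The standard error is the log2 change divided by the root of the F value. The fit was tested on simulated counts. Promoters are those of RefSeq (GRCm38.p6) and positions those of GENCODE M21.

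The comparison, the 57 gene lists and their 889 genes were chosen with earlier results of these data known. Genes named by rule were the 12 largest rises and 12 largest falls among called genes whose libraries did not overlap and whose higher day averaged 5 CPM or more, and up to 4 members of each list with the smallest adjusted p. Some genes are not reported here, but count in their lists. The 117 other genes named were chosen for their role after their values were seen. The alternatives were other scalings, filters, tools (DESeq2 1.42.0, limma 3.58.1), thresholds and sets of libraries.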

Additional observations from a re-analysis of the deposited data

How the results depend on the processing

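The number of called genes was 3772, and it was 944 with a change of at least 2-fold required (536 higher, 408 lower) and 1521 at an adjusted p below 0.01 (675 higher, 846 lower). Leaving out each of the 9 libraries in turn gave 2260 to 4633 called genes, 991 to 2085 higher and 1141 to 2548 lower. The lowest total came without day 4 replicate 3 and the highest without control replicate 2. Other scalings, filters and tools gave 3374 to 4338, and the day 2 and day 4 libraries alone 4380, of which 3520 were shared with the 3772, with 42.3% of calls higher against 48.8%. The scalings moved the median of all genes by at most 0.02. Same-numbered libraries of the 2 days did not deviate together (correlations -0.50, -0.13 and -0.31), so the numbers were not taken as pairs. With the replicate number as a block 2876 genes were called. Of the 259 named genes that were called, 200 were called whichever library was left out and 59 were lost without at least 1. Those lost without 5 or more were Aspn, Axl, Batf3, Bst2, C3, C3ar1, Cd200r3, Cd22, Cd37, Col1a2, Comp, Cxcl12, Derl3, Gata2, Gja1, Ighd, Itga2b, Klf4, Mgp, Rpl4, S100a8, Sparc, Twist1 and Vdr. None of the 259 changed direction under these alternatives, and 20 of the 51 not called had the other sign in at least 1 of them. Of the 23 leading genes shown, Cxcl2 was not called by limma voom (adjusted p = 0.133), and Ermap and Slc4a1 were lost as given above, besides calls lost at the stricter threshold. With 3 libraries a day, genes of few counts such as Cxcl3 and Mmp10 have poorly fixed sizes of change.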

Other observations

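Of 18 tested genes of the molecular clock 4 were called lower and 2 higher. That is 33.3% called, against 21.6% of all genes tested, 11.1% lower and 10.6% higher. Nr1d2, a repressor of the clock, measured 111, 102 and 126 CPM at day 2 and 51.6, 50 and 50.3 CPM at day 4 (log2 change -1.16 ± 0.11, adjusted p = 2.61e-04), while its target Arntl rose from 17.4, 19.2 and 21.9 to 41.2, 34.9 and 31.3 CPM (log2 change 0.88 ± 0.18, adjusted p = 0.00757) and Cry1 gave 0.78 ± 0.17. Bhlhe40, which hypoxia also raises, fell from 133, 131 and 181 to 49.6, 48.6 and 46.6 CPM (log2 change -1.62 ± 0.13, adjusted p = 1.11e-04), and Nfil3 gave -0.81 ± 0.11. The time of day of collection is not given in the sources used here and its part was not tested. Lower calls on this list numbered 8 without control replicate 1 and 9 without control replicate 2. Among 18 glucocorticoid-responsive genes 5 fell and 2 rose. The metallothioneins Mt2 (3.12, 8.87 and 5.46 CPM at day 2 and 0.641, 0.412 and 0.546 CPM at day 4, log2 change -3.41 ± 0.61, adjusted p = 0.0046) and Mt1 (-1.95 ± 0.27) fell, as did Fkbp5 (-1.31 ± 0.22), whereas Arrdc2 rose (0.59 ± 0.13), and Tsc22d3 (0.91 ± 0.33) and Per1 (0.43 ± 0.52) did not pass. Lower calls numbered 3 without control replicate 3, day 2 replicate 1 or 3 or day 4 replicate 1, 2 or 3.

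Of 14 acute phase genes 4 fell and 3 rose. Saa3, a serum amyloid, measured 97.2, 118 and 131 CPM at day 2 and 4.81, 23.3 and 10.4 CPM at day 4 (log2 change -3.18 ± 0.59, adjusted p = 0.0105), and its day 4 libraries were all above the controls (0.134, 1.76 and 1.23 CPM). Serpina3n fell from 77.3, 206 and 152 to 19.8, 20.6 and 14.1 CPM (log2 change -2.99 ± 0.52, adjusted p = 0.00811), Cp gave -0.77 ± 0.13 and Slpi -0.72 ± 0.16. Rises on this list numbered 1 without day 2 replicate 1 or 2 and 0 without day 2 replicate 3 or day 4 replicate 3. Complement C3 rose (0.93 ± 0.25) and its receptor gene C3ar1 fell (-0.95 ± 0.29), but C3ar1 was not called without control replicate 3 or any one of the 6 compared libraries, nor C3 without control replicate 3 or any compared library but day 4 replicate 2 (adjusted p 0.0516 to 0.105). Of 23 tested genes of marrow retention and egress 5 were called higher and 3 lower (median 0.22). Cxcr4, the receptor that holds cells in the marrow, rose from 16.4, 15.3 and 16.8 to 35.1, 27.7 and 47.9 CPM (log2 change 1.19 ± 0.21, adjusted p = 0.00433). The integrins Itgal (1.22 ± 0.18) and Itga4 (0.62 ± 0.13) rose, while Cxcl1 and, with the limits given above, Cxcl12 fell. Of 10 eosinophil, basophil and mast cell genes 4 rose, Ear2 (1.99 ± 0.45), Cpa3 (1.13 ± 0.16), Cd200r3 (1.28 ± 0.33) and Gata2 (0.74 ± 0.20), with 2 called without day 2 replicate 1 or 2 and 1 without day 4 replicate 3. Leaving out day 2 replicate 3 also ended the calls of Cd200r3 and Gata2. Of 9 adipocyte genes Lpl (1.18 ± 0.21) and Fabp4 (0.53 ± 0.10) rose. Among 22 immediate early genes 4 were lower (8 without control replicate 2) and 2 higher, Jund (0.69 ± 0.14) and Klf4 (0.55 ± 0.16), and Klf4 was not called without any one of the 6 compared libraries. Ier3 fell from 44.8, 53.9 and 75.2 to 8.53, 9.4 and 8.65 CPM (log2 change -2.71 ± 0.18, adjusted p = 7.19e-05) and Myc gave -0.87 ± 0.13. Irf4 of plasma cells and other leukocytes rose (2.13 ± 0.32).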
